A study of Mus musculus with 18 samples.

Results

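Among the 41079 genes of the expression table, 10 members were taken by name because they mark neutrophils or encode ligands of the neutrophil chemokine receptor CXCR2. They are 6 genes of the neutrophil itself (S100a8, S100a9, Csf3r, Cxcr2, Ly6g and Retnlg) and 4 ligands (Cxcl1, Cxcl2, Cxcl3 and Cxcl5), and the rule is a list of names that uses no expression value. They were measured by poly(A) RNA sequencing in 18 B16F10 tumors, 3 in each of 6 groups. B16F10 is a mouse melanoma line, here grown subcutaneously on the flank of C57BL/6 females. Intratumoral injections were given to all groups at intervals of 2 days, beginning on day 6 at a volume of about 50 mm3, and tissue was collected 48 h after the final dose. The PBS group received buffer. The Free PS473 group received PS473, a Pistol ribozyme that is designed to cut the mRNA of PD-L1, and the PS473@CPs group received it with cationic polymers. The NKMOF-101-[Mn] group received a manganese metal-organic framework alone, the M5@NKMOF-101-[Mn] group received the framework loaded with M5, an inactive ribozyme mutant, and the PS473@NKMOF-101-[Mn] group received it loaded with the active ribozyme. The titles of the last group give the framework as NKMOF-102-[Mn], whereas the treatment text and the design text name only NKMOF-101-[Mn]. A tumor here is a whole tissue with melanoma cells, host cells and any skin taken with it, and in such bulk samples fewer cells of a type and less RNA per cell cannot be told apart.

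Neutrophils leave the bone marrow under the control of G-CSF, whose receptor is encoded by Csf3r, and they enter tissue along gradients of the chemokines CXCL1, CXCL2, CXCL3 and CXCL5, all of which bind CXCR2. These ligands are made by macrophages, endothelium, epithelium and tumor cells after signals such as IL-1, TNF and IL-17, and NF-κB is a well-known regulator of their genes. S100a8 and S100a9 encode the 2 chains of calprotectin, which fills the neutrophil cytosol. Keratinocytes also make both proteins, above all in wounded or inflamed skin, so these genes alone do not identify neutrophils. Ly6g is the surface antigen used to recognize mouse neutrophils, and Retnlg encodes a resistin-like protein of mature neutrophils.

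Cxcl5, Cxcl3, Cxcl1 and Cxcl2 lie in 1 cluster of chemokine genes on chromosome 5, where Ppbp and Pf4 lie between Cxcl5 and Cxcl3, and Cxcl15 lies between Cxcl3 and Cxcl1. S100a8 and S100a9 are neighbors on chromosome 3. The upstream sequences of 3 ligands are shown because their promoters share a motif that was found in no other member searched. They were read from RefSeq promoters of build GRCm38.p6 (the deposited files name GRCm39), and each run is the 130 bases that end at the base before the start of transcription, on the plus strand. The capitals mark matches to the NF-κB consensus:

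Cxcl1: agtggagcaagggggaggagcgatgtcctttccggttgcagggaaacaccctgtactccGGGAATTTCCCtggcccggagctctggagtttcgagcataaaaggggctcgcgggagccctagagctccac
Cxcl2: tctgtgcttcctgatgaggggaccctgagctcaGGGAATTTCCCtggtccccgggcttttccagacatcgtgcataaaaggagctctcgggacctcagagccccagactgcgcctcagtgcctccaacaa
Cxcl3: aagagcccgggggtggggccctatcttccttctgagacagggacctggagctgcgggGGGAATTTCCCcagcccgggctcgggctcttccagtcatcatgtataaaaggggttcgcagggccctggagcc

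The windows are chr5:90891115-90891244 for Cxcl1, chr5:90903769-90903898 for Cxcl2 and chr5:90785971-90786100 for Cxcl3. The NF-κB consensus was searched on both strands of the 300 bases from 250 before to 50 after each start. In each of the 3 ligands it matched at 2 overlapping places, 1 base apart, which together form the same 11 bases, GGGAATTTCCC. These bases begin 71 bases before the start in Cxcl1, 97 bases before it in Cxcl2 and 73 bases before it in Cxcl3. Of the 10 members 9 had a promoter in the table, and the other 6 of those (S100a8, S100a9, Csf3r, Cxcr2, Ly6g and Retnlg) held no match in this window. Cxcl5 was not listed. The consensus was present in 4.51% of all 32851 promoters of that length. A match describes letters only.

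The fragments assigned to genes were recovered from the steps between low FPKM values and lay between 17212000 and 28401000 per tumor. FPKM is the number of fragments scaled to gene length and to the total of each tumor. It is a share of that total, so a level also depends on what else the tumor holds. No tumor held the values of another in any of the 153 pairs. Cd274, which encodes the ribozyme's target PD-L1, was at 21.5, 15.7 and 12.3 FPKM in the PBS tumors and, with PS473@NKMOF-101-[Mn], at 17.0, 32.9 and 9.74 FPKM, so that these groups overlapped. The melanocyte gene Pmel was at 893 FPKM or more in every tumor. Skin differed most: the mean log2(FPKM + 1) of 32 markers of skin epithelium, called the skin score below, was between 0.112 and 0.159 in 8 tumors and between 0.541 and 6.21 in the other 10. It reached 6.21 in a PBS tumor, 5.98 in a PS473@CPs tumor, 4.76 in an NKMOF-101-[Mn] tumor, 3.49 in an M5@NKMOF-101-[Mn] tumor, 3.31 in a Free PS473 tumor and 2.91 in a PS473@NKMOF-101-[Mn] tumor. Each group also held at least 1 tumor at or under 0.153, and Krt14, the keratin of basal epidermis, was listed at 0 in 5 tumors and reached 2058 FPKM in PBS tumor 2.

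S100a8 and S100a9 reached the highest levels of the 10 members and had the widest spread, although their medians over the 18 tumors, 0.701 and 0.356 FPKM, were below that of Cxcl2 at 2.95 FPKM. S100a8 was at 0.382, 252 and 77.9 FPKM in the PBS tumors. It was at 0.127, 0.497 and 82.4 FPKM in the Free PS473 tumors and at 0, 178 and 0.808 FPKM in the PS473@CPs tumors. Each of these 3 groups therefore held both tumors with almost no S100a8 and tumors with a high level. In the framework groups the S100a8 level was 4.50, 0.344 and 6.03 FPKM with NKMOF-101-[Mn] alone and 0.593, 1.52 and 10.8 FPKM with M5@NKMOF-101-[Mn]. With PS473@NKMOF-101-[Mn] it was 0, 0.364 and 0 FPKM, where 3 fragments of this short gene correspond to at most 0.445 FPKM. Thus 4 tumors exceeded 20 FPKM, all without the framework, and the other 5 tumors without the framework lay at or under 0.808 FPKM, within the range of the framework tumors.

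S100a9, which encodes the partner chain, followed S100a8. Its level was 0.400, 209 and 70.5 FPKM in the PBS tumors, 0.145, 0.170 and 66.7 FPKM in the Free PS473 tumors and 0.217, 119 and 0.231 FPKM in the PS473@CPs tumors. It was 6.29, 0.885 and 4.31 FPKM with NKMOF-101-[Mn], 0, 0.145 and 7.84 FPKM with M5@NKMOF-101-[Mn] and 0.277, 0.312 and 0.143 FPKM with PS473@NKMOF-101-[Mn]. The same 4 tumors were high for both genes. In the 7 tumors in which both exceeded 3 FPKM, S100a8 was the higher of the pair in 6, and NKMOF-101-[Mn] tumor 1 was the exception. Across the 18 tumors the genes had a Pearson r of 0.99 (adjusted p = 0.00018, permutation test) and a Spearman rho of 0.74 (adjusted p = 0.00283, permutation test) on the log2(FPKM + 1) scale, and r was 0.98 without the 2 tumors farthest from the median of S100a8.

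The receptors and the other neutrophil markers were low in every tumor. Csf3r, the receptor for G-CSF, which monocytes and macrophages can also carry, ranged from 0.0893 FPKM in a Free PS473 tumor to 0.955 FPKM in an NKMOF-101-[Mn] tumor, with a median of 0.562 FPKM. Its values were 0.307, 0.591 and 0.667 FPKM in the PBS tumors and 0.230, 0.919 and 0.214 FPKM with PS473@NKMOF-101-[Mn], so that these groups overlapped. Cxcr2, the receptor for the ligands described below, was listed at 0 in 6 tumors and exceeded 0.1 FPKM in 5. Those were 2 PBS tumors at 0.310 and 0.388 FPKM, 1 PS473@CPs tumor at 1.07 FPKM, 1 NKMOF-101-[Mn] tumor at 0.272 FPKM and 1 M5@NKMOF-101-[Mn] tumor at 0.188 FPKM. All 5 had a skin score of 3.49 or more. It was listed at 0 in all 3 PS473@NKMOF-101-[Mn] tumors, where 3 fragments would correspond to at most 0.0289 FPKM.

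Ly6g was listed at 0 in all 18 tumors, where 3 fragments would correspond to at most 0.164 FPKM. It has close relatives in the Ly6 family, and the sources used here do not give how reads shared among them were counted, so that this 0 is uncertain. Retnlg was listed at 0 in 8 tumors and reached 0.436 FPKM in PS473@CPs tumor 2, where 1 fragment is worth 0.0579 to 0.0956 FPKM depending on the tumor. It stood at 0.329 FPKM in PBS tumor 1, 1 of the 8 tumors with the lowest skin scores, and at 0 in PBS tumor 3, which had 77.9 FPKM of S100a8. Retnlg had 3 estimated fragments or fewer in 15 tumors, too few to show whether it accompanied S100a8.

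**Figure D1:**
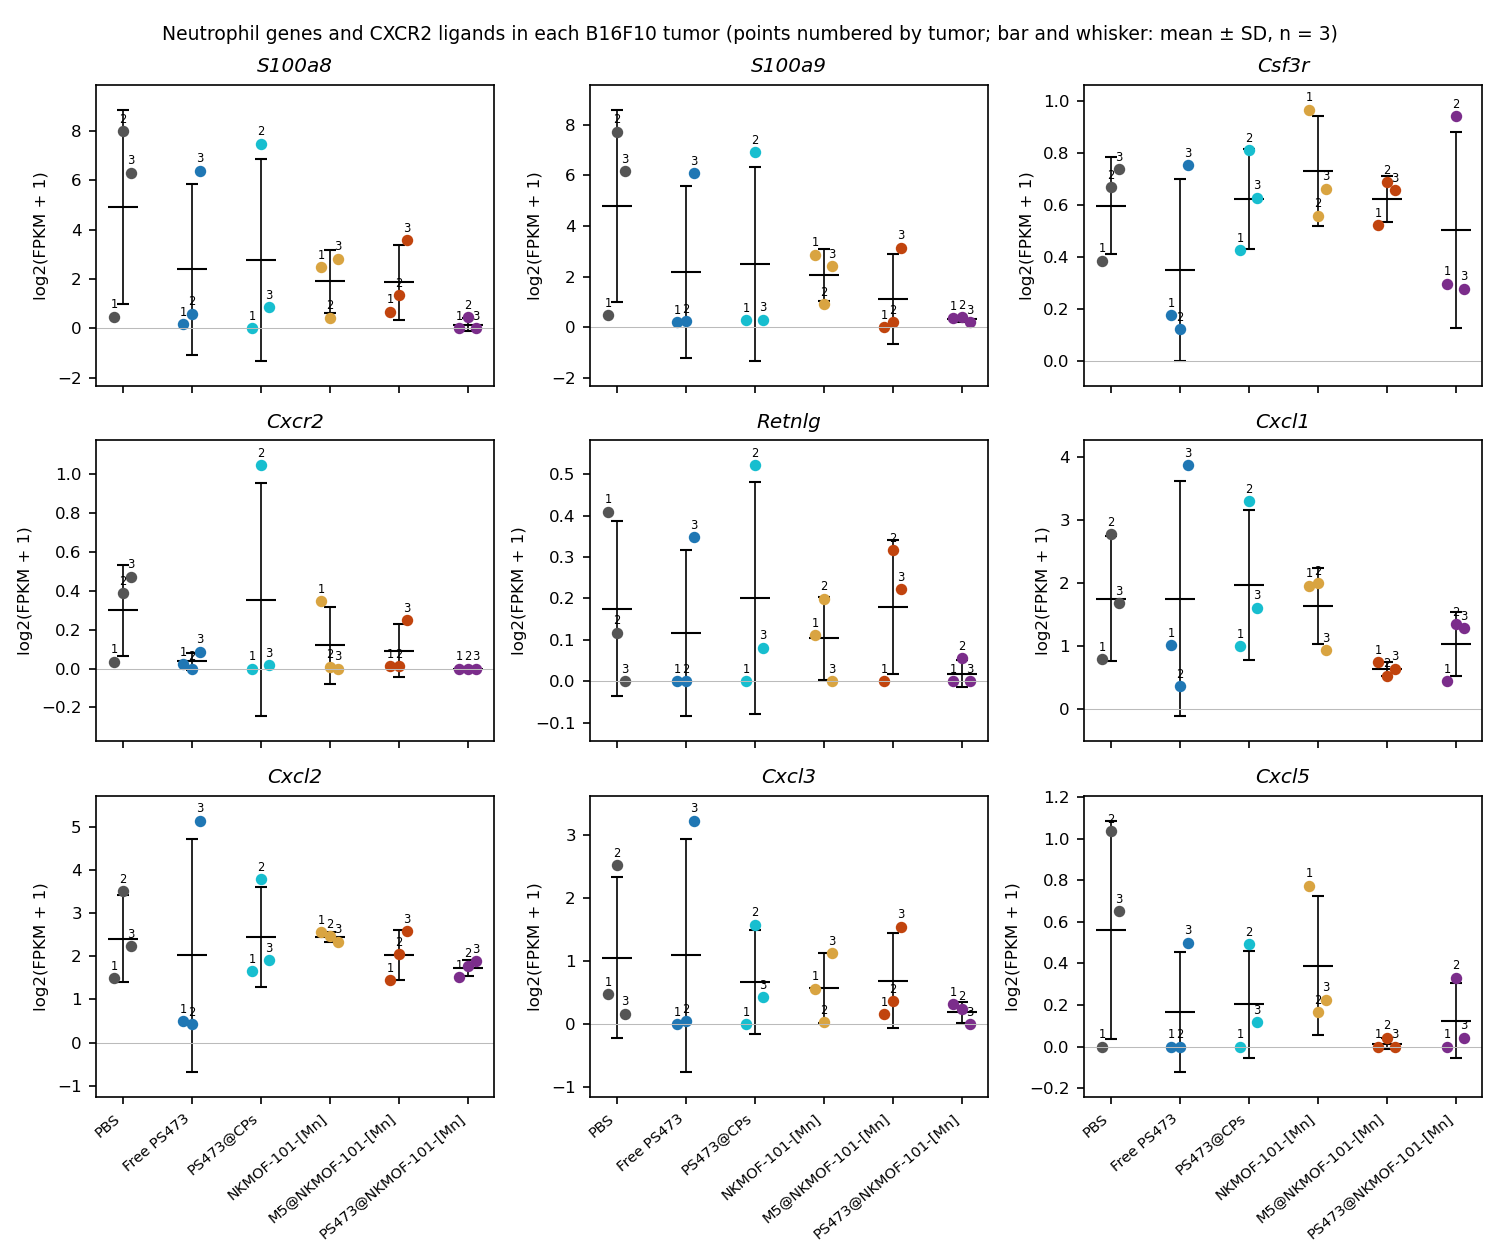
Level of the 9 members above 0 in any tumor, as log2(FPKM + 1) on the vertical axes, in the 6 groups on the horizontal axis. Points are single tumors numbered within their group, bars and whiskers are the mean ± SD of 3 tumors, and the 4 S100a8 points that stand highest are PBS tumors 2 and 3, Free PS473 tumor 3 and PS473@CPs tumor 2.

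Among the ligands, Cxcl2 had the highest level in FPKM in almost every tumor. It exceeded Cxcl3 in 18 of 18 tumors and Cxcl1 in 17 of 18, and Cxcl1 exceeded Cxcl3 in 16 of 18. The exception for Cxcl1 was Free PS473 tumor 1, at 1.02 FPKM of Cxcl1 and 0.413 FPKM of Cxcl2. The ratio of Cxcl2 to Cxcl1 had a median of 1.83 and ranged from 0.407 to 9.03.

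Cxcl2, a ligand that activated macrophages make in large amounts, was at 1.82, 10.3 and 3.69 FPKM in the PBS tumors. The Free PS473 tumors held both the lowest and the highest levels, at 0.413, 0.342 and 34.2 FPKM. The PS473@CPs tumors were at 2.15, 12.7 and 2.75 FPKM. The framework groups were narrower, at 4.91, 4.51 and 4.05 FPKM with NKMOF-101-[Mn], 1.72, 3.14 and 5.01 FPKM with M5@NKMOF-101-[Mn] and 1.85, 2.44 and 2.71 FPKM with PS473@NKMOF-101-[Mn]. All 9 framework tumors lay between 1.72 and 5.01 FPKM, inside the range of the 9 tumors without it. The 3 PS473@NKMOF-101-[Mn] tumors lay below the 3 NKMOF-101-[Mn] tumors for Cxcl2 and S100a9, 2 of the 5 members tested below, and 5.5% of all 12357 tested genes separated in this direction. The log2 fold change of Cxcl2 there was -0.73 ± 0.96 (SE, n = 3 per group), with an adjusted p of 0.999 in limma.

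Cxcl1, which epithelium and stroma also make, was at 0.732, 5.83 and 2.19 FPKM in the PBS tumors, 1.02, 0.286 and 13.6 FPKM in the Free PS473 tumors and 0.987, 8.79 and 2.05 FPKM in the PS473@CPs tumors. It was at 2.88, 2.99 and 0.913 FPKM with NKMOF-101-[Mn], 0.669, 0.443 and 0.555 FPKM with M5@NKMOF-101-[Mn] and 0.354, 1.54 and 1.43 FPKM with PS473@NKMOF-101-[Mn]. The M5@NKMOF-101-[Mn] tumors lay below all 3 PBS tumors, by 0.669 against 0.732 FPKM at the nearest pair, and 3.36% of all tested genes separated in this direction. Of the 5 tested members, Cxcl1 was the 1 that did. That difference was -1.11 ± 0.78 on the log2(FPKM + 1) scale (SE, n = 3 per group), with an adjusted p of 0.999 in limma.

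Cxcl3 was above 1 FPKM in 5 tumors, namely PBS tumor 2 (4.76 FPKM), Free PS473 tumor 3 (8.41 FPKM), PS473@CPs tumor 2 (2.00 FPKM), NKMOF-101-[Mn] tumor 3 (1.19 FPKM) and M5@NKMOF-101-[Mn] tumor 3 (1.93 FPKM). It was listed at 0 in 3 tumors. With PS473@NKMOF-101-[Mn] its levels were 0.249, 0.187 and 0 FPKM. Cxcl5, which epithelial cells secrete, was listed at 0 in 7 tumors and was highest in PBS tumor 2 at 1.05 FPKM, the 1 tumor in which it exceeded 1 FPKM. Its next levels were 0.711 FPKM in NKMOF-101-[Mn] tumor 1 and 0.569 FPKM in PBS tumor 3, both with skin scores above 4.

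The comparisons between groups ask whether the carrier, the ribozyme or both moved these genes. Each was tested with limma on log2(FPKM + 1) over the 12357 genes that averaged 1 FPKM or more, with all 18 tumors in 1 fit, and calls required a Benjamini-Hochberg adjusted p under 0.05 together with more than a 2-fold change. Of the 10 members, 5 passed the filter (S100a8, S100a9, Cxcl1, Cxcl2 and Cxcl3), several of them through a few high tumors, and Csf3r, Cxcr2, Ly6g, Retnlg and Cxcl5 did not. In all 11 comparisons 0 of the 5 were called, against a background of 0% of all genes. At an unadjusted p under 0.05, 2 of the 5 members passed in PS473@NKMOF-101-[Mn] against PBS, where 2.1% of all genes did. None of the 5 passed at that level in the other comparisons, whose background was 4.98% against Free PS473, 2.29% against PS473@CPs, 2.3% against the framework alone and 0.591% against M5@NKMOF-101-[Mn]. For the remaining groups against PBS it was 1.81% with Free PS473, 2.09% with PS473@CPs, 1.46% with NKMOF-101-[Mn] and 1.51% with M5@NKMOF-101-[Mn]. It was 4.56% for the 3 framework groups against the 3 groups without the framework and 1.99% for any difference among the 6 groups. The comparisons with PBS share the PBS tumors, and those of PS473@NKMOF-101-[Mn] share its tumors.

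The 2 members were S100a8 and S100a9, which had an r of 0.99 across the tumors and so are not independent results. S100a8 had a log2 fold change of -4.77 ± 2.11 (SE, n = 3 per group) in PS473@NKMOF-101-[Mn] against PBS, with a 95% interval from -9.27 to -0.26 and an adjusted p of 0.993. S100a9 had a log2 fold change of -4.47 ± 2.02 (SE, n = 3 per group) and the same adjusted p. These differences missed the threshold. The 3 PS473@NKMOF-101-[Mn] tumors lay below the 3 PBS tumors for both genes. At the nearest pair this was 0.364 against 0.382 FPKM for S100a8, an estimated 3 fragments in each tumor, and 0.312 against 0.400 FPKM for S100a9. The share of all genes that separated in this direction was not computed for this comparison. The skin score differed as well: it was 0.118, 6.21 and 4.68 in the PBS tumors and 0.119, 2.91 and 0.541 in those given PS473@NKMOF-101-[Mn]. Of 30 skin markers tested in this comparison, 0 were called, 29 were lower and their median log2 fold change was -2.62, beside -0.01 for all genes. With the skin score as a covariate the log2 fold change was -2.11 for S100a8 and -1.92 for S100a9, and it was -3.23 and -3.01 without PBS tumor 2.

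For the ligands in PS473@NKMOF-101-[Mn] against PBS, the log2 fold change was -0.72 ± 0.78 (SE) for Cxcl1, -0.68 ± 0.96 (SE) for Cxcl2 and -0.87 ± 0.79 (SE) for Cxcl3, with an adjusted p of 0.993 for each in limma. Without PBS tumor 2 these were -0.21, -0.13 and -0.13, and without PBS tumor 1 that of Cxcl1 was -1.20 and that of Cxcl2 -1.14, while Cxcl3 was -1.31 without PBS tumor 3. With the skin score as a covariate the signs for Cxcl1 and Cxcl2 turned, at 0.048 and 0.23. The interval for Cxcl2 ran from -2.74 to 1.37 on the log2 scale, so that changes of over 2-fold in either direction were not excluded at this number of tumors. Between the framework groups and the others, which had 9 tumors each, the log2 fold change was -2.06 ± 1.22 (SE) for S100a8, -1.99 ± 1.17 (SE) for S100a9, -0.72 ± 0.45 (SE) for Cxcl1, -0.22 ± 0.56 (SE) for Cxcl2 and -0.46 ± 0.45 (SE) for Cxcl3, with adjusted p values from 0.9 to 0.95 in limma. Without Free PS473 tumor 3 the log2 fold change was -0.37 for Cxcl1 and -0.10 for Cxcl3, and without PS473@CPs tumor 2 it was -1.27 for S100a8, -1.25 for S100a9, -0.30 for Cxcl3 and near 0 for Cxcl2. Without PBS tumor 2 it was -0.21 for Cxcl3 and -0.04 for Cxcl2. Over these 18 tumors the sign for Cxcl2 turned with the skin score as a covariate (0.11), with array weights (0.26) and without Free PS473 tumor 3 (0.30), and that for Cxcl3 turned with array weights (0.028). Skin markers were also lower in the framework groups, with a median log2 fold change of -1.02 over 30 markers and 29 of them lower, and their part in these differences was not tested beyond the covariate fit.

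The active and inactive ribozymes in the same framework were compared directly. For PS473 minus M5 in NKMOF-101-[Mn] the log2 fold change was -1.71 ± 2.11 (SE, n = 3 per group) for S100a8, with an interval from -6.21 to 2.80, and 0.39 ± 0.78 (SE, n = 3 per group) for Cxcl1, with an interval from -1.27 to 2.05. The other 3 tested members lay between -0.80 and -0.30, and every adjusted p was 1 in limma. The members that failed the filter were fitted without it. Cxcl5 had its smallest p in M5@NKMOF-101-[Mn] against PBS (log2 fold change -0.55, unadjusted p = 0.0375 in limma) and no adjusted p under 0.874 in any comparison. Csf3r lay between -0.25 and 0.15 on the log2(FPKM + 1) scale over the 10 comparisons, Cxcr2 between -0.35 and 0.06 and Retnlg between -0.18 and 0.03. All had an unadjusted p of 0.124 or more in limma. This scale understates changes of such low genes, so these values are not fold changes of the FPKM. The -0.35 of Cxcr2 was a mean of 0 FPKM with PS473@NKMOF-101-[Mn] against 0.359 FPKM with PS473@CPs, where the highest tumor had 1.07 FPKM.

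**Figure D2:**
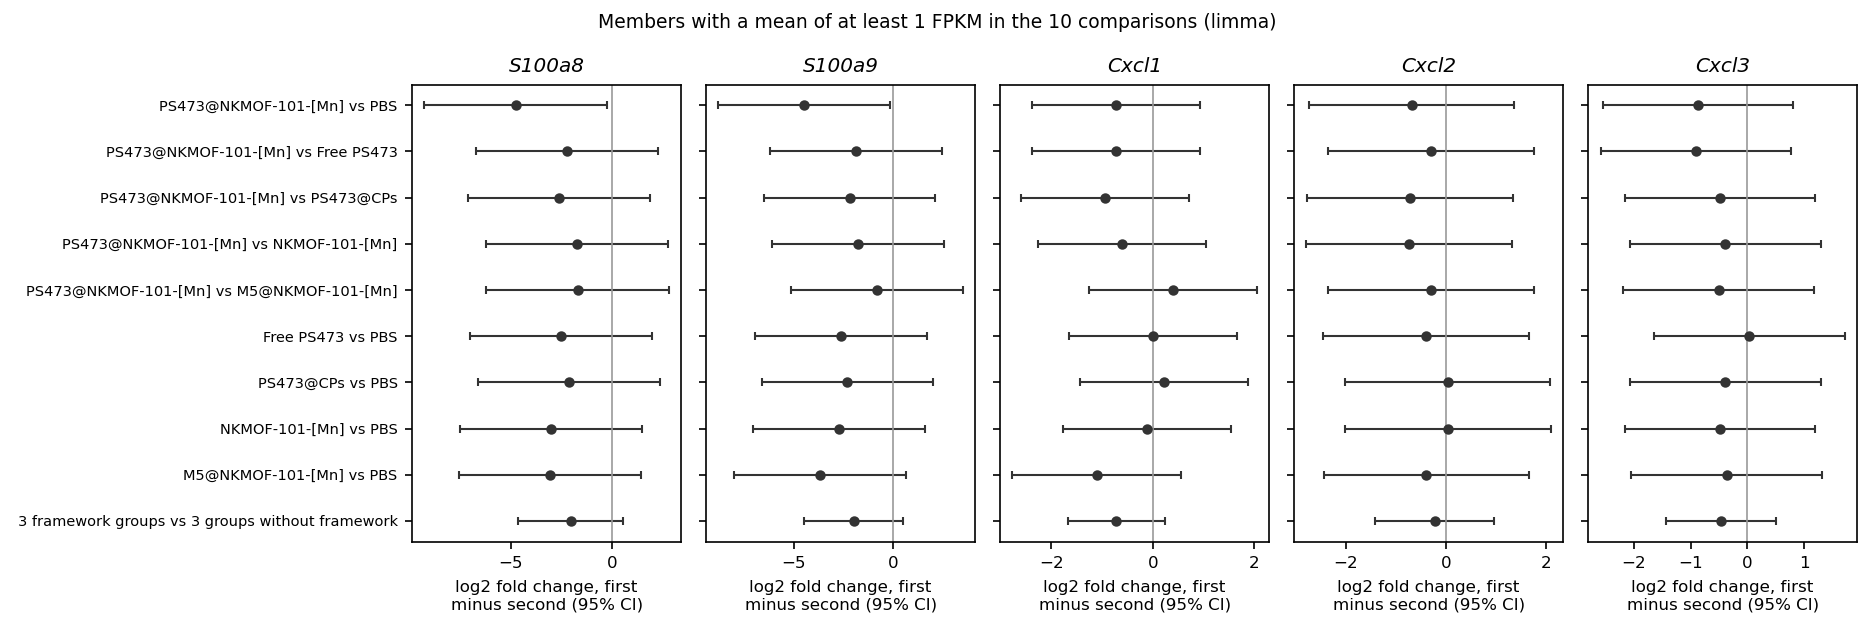
Log2 fold change on the log2(FPKM + 1) scale with its 95% interval from limma, for the 5 tested members in 10 comparisons, first group minus second. The intervals of S100a8 and S100a9 in PS473@NKMOF-101-[Mn] against PBS end just below 0 before adjustment, and all others cross 0.

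The differences were set against a large spread between tumors of 1 group. The SD within groups on the log2(FPKM + 1) scale was 2.84 for S100a8, 2.73 for S100a9, 1.29 for Cxcl2, 1.05 for Cxcl3 and 1.04 for Cxcl1, and its median over all 12357 tested genes was 0.183. S100a8 and S100a9 each varied within groups more than 99.8% of the tested genes did, Cxcl2 more than 99%, and Cxcl1 and Cxcl3 more than 98.1%.

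S100a8 moved with the skin score. In the 8 tumors with a skin score under 0.2, S100a8 had a median of 0.363 FPKM and a highest level of 1.52 FPKM, and in the other 10 its median was 8.42 FPKM and its highest level 252 FPKM. S100a8 and the skin score had a Pearson r of 0.88 (adjusted p = 0.000216, permutation test) and a Spearman rho of 0.79 (adjusted p = 0.00108, permutation test) across the 18 tumors. The r was 0.78 without the 2 tumors farthest from the median skin score, 0.90 on deviations from the group means and 0.82 in the 10 tumors with a skin score above 0.5. The order was not exact: NKMOF-101-[Mn] tumor 1 had a skin score of 4.76 and 4.50 FPKM of S100a8, and Free PS473 tumor 3 had a lower score of 3.31 and 82.4 FPKM. PS473@NKMOF-101-[Mn] tumor 2 had a score of 2.91 and 0.364 FPKM of S100a8. Whether S100a8 and S100a9 came from skin or from neutrophils in these tumors was not tested.

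Most members followed the skin score. Of 9 members, 8 passed an adjusted p under 0.05 with it by r and by rho in permutation tests, all but Retnlg. The Pearson r was 0.895 for S100a9, 0.69 for Cxcl1 and 0.64 for Cxcl3. Without the 2 tumors farthest from the median score it was 0.81, 0.50 and 0.46. In the 10 tumors with a score above 0.5 it was 0.84, 0.53 and 0.43. The share of all genes that follow the skin score was not computed. Cxcl5 and Cxcr2 were among the members that followed it. The Pearson r was 0.88 for Cxcl5 (rho 0.84) and 0.81 for Cxcr2 (rho 0.62), with adjusted p values of 0.000231 for both r in permutation tests over 18 tumors, and in the 10 tumors with a score above 0.5 it was 0.81 and 0.80. Without the 2 tumors farthest from the median score it was 0.85 for Cxcl5 and 0.83 for Cxcr2. The estimate was 3 fragments or fewer in 9 tumors for Cxcl5 and in 12 tumors for Cxcr2, and it reached 158 fragments for Cxcr2 in PS473@CPs tumor 2. Csf3r had an r of 0.71 with the skin score (rho 0.81), 0.77 without the 2 farthest tumors and 0.57 in the 10 tumors. Its r was 0.90 with the mean log2(FPKM + 1) of 14 markers of macrophages and monocytes (rho 0.88, adjusted p = 0.00018 for r, permutation test). The latter r was 0.84 without the 2 tumors farthest from the median of that score. Cxcl2 had an r of 0.75 with the macrophage and monocyte score (0.77 without the 2 farthest tumors) and of 0.68 with the skin score (0.56 without the 2 farthest tumors, and 0.48 in the 10 tumors, p = 0.157, permutation test). The macrophage and monocyte score ranged from 2.51 to 4.57 and had its lowest and highest tumors in the Free PS473 and NKMOF-101-[Mn] groups. Of the 9 members, 5 passed an adjusted p under 0.05 with this score by r and 8 by rho in permutation tests. Following the skin score was therefore not particular to skin. The share of all genes that follow the macrophage and monocyte score was not computed either.

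**Figure D3:**
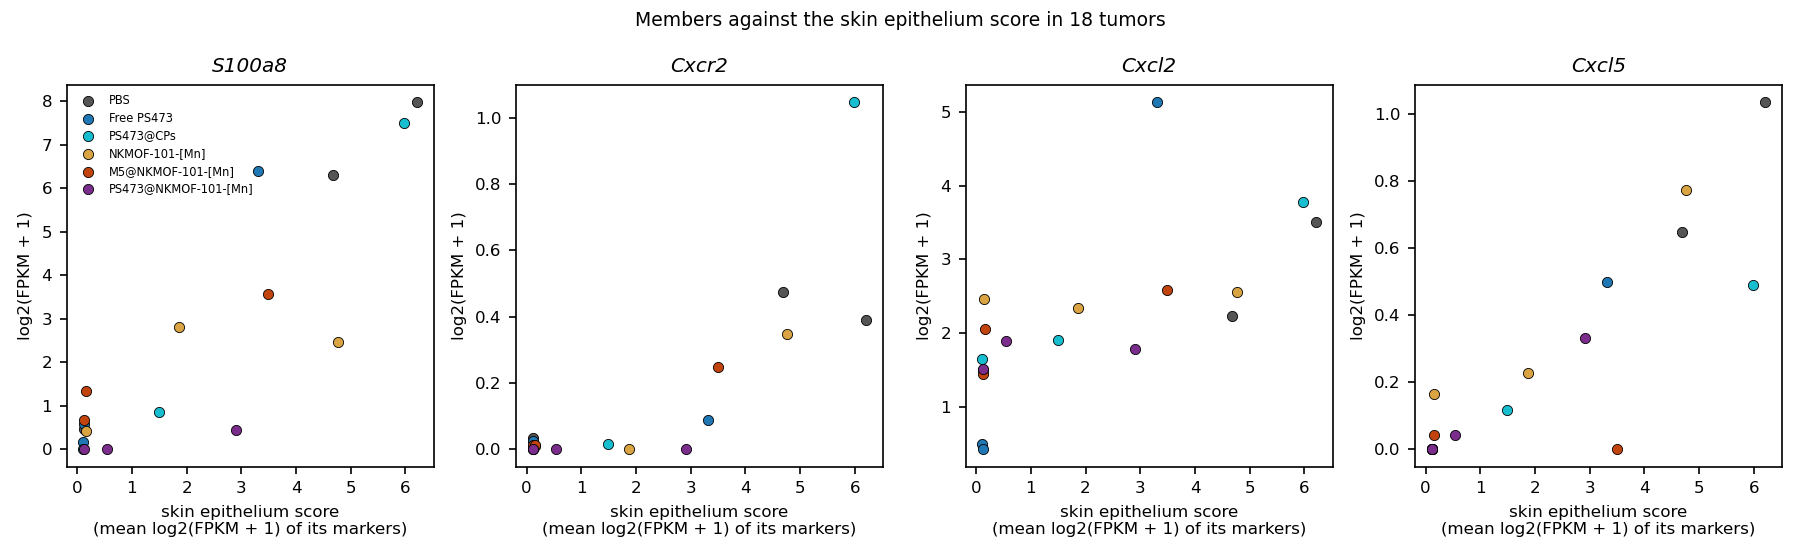
S100a8, Cxcr2, Cxcl2 and Cxcl5 in log2(FPKM + 1), vertical, against the skin score, horizontal, in 18 tumors colored by group. Values are near the bottom in most of the 8 tumors with the lowest scores for S100a8, Cxcr2 and Cxcl5, whereas Cxcl2 is highest in a Free PS473 tumor with a score of 3.31.

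The ligands varied together, and S100a8 and S100a9 varied with them. The Pearson r was 0.79 for S100a8 with Cxcl3 and 0.79 for S100a9 with Cxcl2. Cxcl1 and Cxcl2 had a Pearson r of 0.86 (adjusted p = 0.000216, permutation test) and a rho of 0.69, and r was 0.68 without the 2 tumors farthest from the median of Cxcl1. Cxcl2 and Cxcl3 had an r of 0.86 (adjusted p = 0.00027, permutation test) and a rho of 0.72, with 0.71 on leaving out the 2 farthest tumors. Cxcl1 and Cxcl3 had an r of 0.71 but a rho of 0.34 (adjusted p = 0.176, permutation test), and r fell to 0.41 without the 2 farthest tumors, so that this relation rests on a few tumors. All 3 genes were highest in Free PS473 tumor 3 and next highest in PBS tumor 2 or PS473@CPs tumor 2. Of the 36 pairs among the 9 members above 0, all had a positive r, 27 passed an adjusted p under 0.05 by r and 32 by rho. The share of pairs of other genes that pass was not computed, so these counts do not set the members apart. The 54 relations tested, the 36 pairs and those with the 2 scores, form 1 family. Retnlg, with at most 6.5 estimated fragments in a tumor, carries little weight in them, whereas Csf3r, a longer gene, had 16 to 136.

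**Figure D4:**
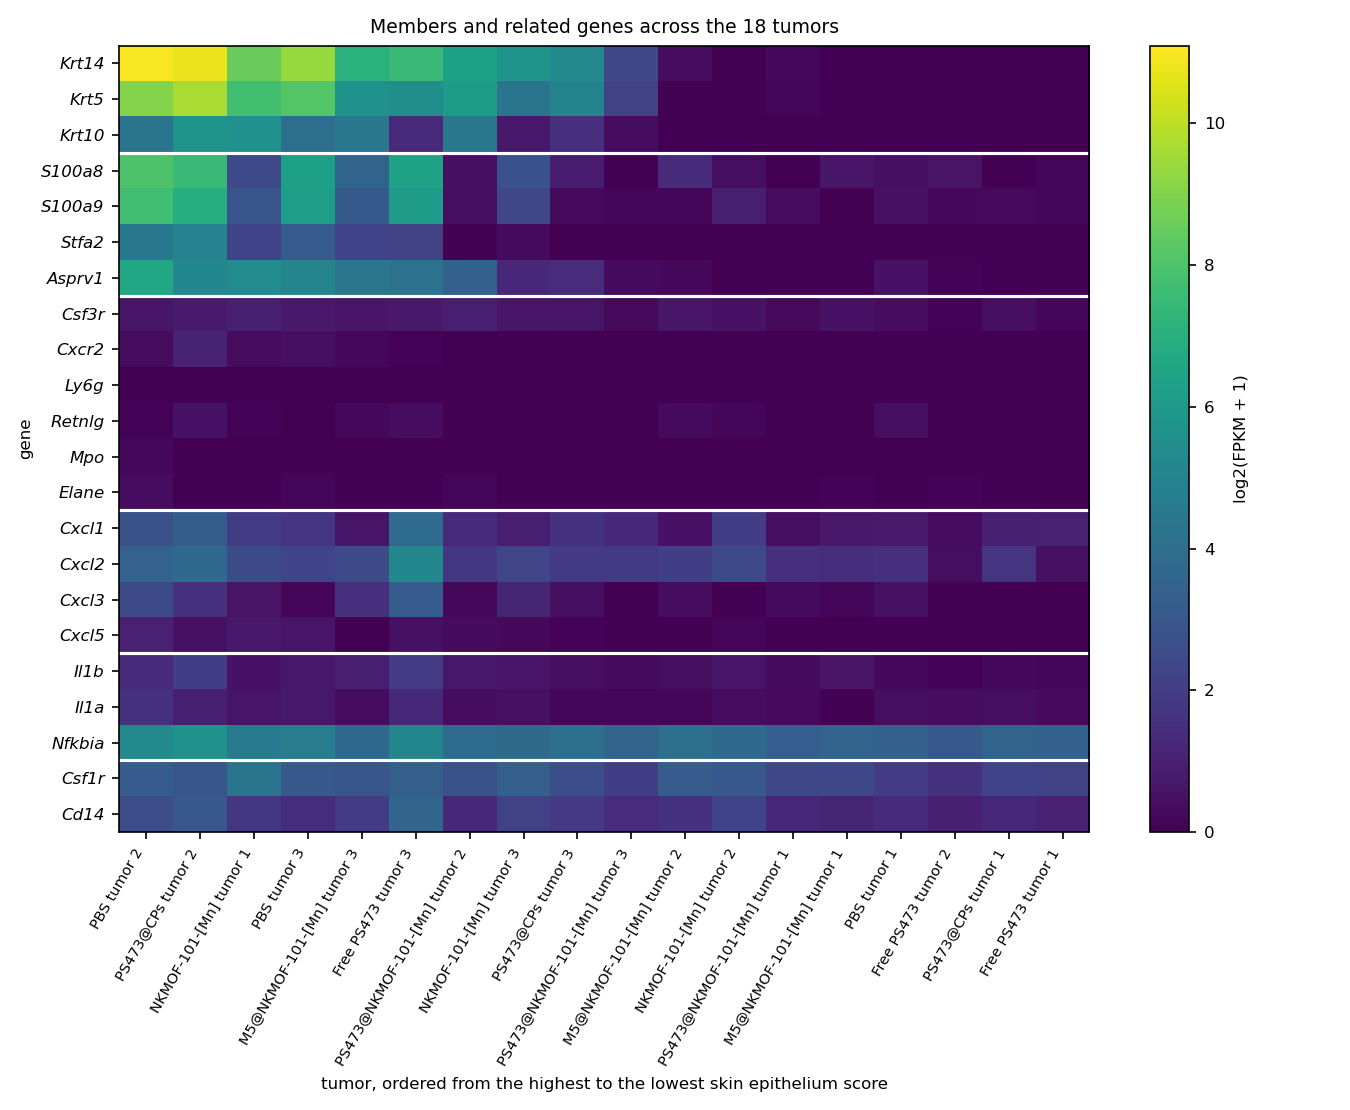
Level in log2(FPKM + 1), as color, of the 10 members and 12 related genes (rows) in 18 tumors (columns) ordered from the highest to the lowest skin score. S100a8 and S100a9 are bright mainly in tumors on the left that also hold keratins, while Ly6g, Mpo and Elane stay dark throughout.

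Other genes of neutrophils were listed as well. Of 14 granule and maturation genes, 2 averaged 1 FPKM or more. The primary granule genes Mpo (myeloperoxidase) and Elane (neutrophil elastase), which are transcribed in marrow precursors, were listed at 0 in 16 and 11 tumors and did not exceed 0.171 and 0.307 FPKM. The secondary granule genes Camp, Ngp and Ltf had means of 0.0894, 0.165 and 0.0495 FPKM, and each was highest in PBS tumor 2. For Camp this was 0.385 FPKM, with 0.375 FPKM in PBS tumor 1, so that the 2 tumors hardly differed. Others of the list differed. Mmp8 was above 0 in all 18 tumors and was highest in M5@NKMOF-101-[Mn] tumor 3 at 1.34 FPKM. It was at 0.733, 0.585 and 0.166 FPKM in the PBS tumors and at 0.638, 0.466 and 0.638 FPKM with PS473@NKMOF-101-[Mn]. Chil3 was above 0 in 17 tumors and was highest in PS473@CPs tumor 2 at 2.90 FPKM. The 2 tested genes were Lcn2, an iron-scavenging protein that epithelium also secretes, and Mmp9, a gelatinase of neutrophils and macrophages. Lcn2 was highest in PS473@CPs tumor 2 at 21.2 FPKM, and Mmp9 in PBS tumor 2 at 11.6 FPKM. Neither passed an unadjusted p of 0.05 in any comparison, and in PS473@NKMOF-101-[Mn] against PBS both were lower, with a median log2 fold change of -1.32 beside -0.01 for all genes.

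Of 21 surface and activation genes of mature neutrophils found in the table, 8 were tested and 0 were called or passed an unadjusted p of 0.05 in any comparison. Cxcr1, the other IL-8 family receptor, did not exceed 0.174 FPKM and the activating receptor Trem1 did not exceed 0.279 FPKM. Clec4d, a C-type lectin receptor that macrophages also carry, had a median of 1.72 FPKM and was above 0 in all 18 tumors. Stfa2, a stefin with near-identical copies in its family, was listed at 0 in 10 tumors and reached 29.4 FPKM in PS473@CPs tumor 2. Asprv1, a protease that is also well known in the epidermis, reached 97.4 FPKM in PBS tumor 2 and 39.7 FPKM in NKMOF-101-[Mn] tumor 1, whose skin scores were 6.21 and 4.76. In PS473@NKMOF-101-[Mn] against PBS the 8 tested genes had a median log2 fold change of -0.57, with 6 lower, and between the framework groups and the others it was -0.07, with 4 lower.

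The genes around the ligands were compared in the same way. Of 7 further ligands, receptors and growth factors, Csf3, which encodes G-CSF, did not exceed 0.390 FPKM, a level seen in Free PS473 tumor 3, and Csf2 did not exceed 0.156 FPKM. Ppbp, another CXCR2 ligand that platelets store, had a mean of 0.660 FPKM, and Cxcl15 was listed at 0 in 17 tumors. Ackr1, a decoy receptor that binds these chemokines without signaling, was at 0.4835 FPKM or less. Pf4, a platelet chemokine, and Mif, a cytokine that can also bind CXCR2, were the 2 tested genes of the list, with means of 12.8 and 1244 FPKM. Pf4 passed an unadjusted p of 0.05 in 1 comparison, with a log2 fold change of -1.70 ± 0.73 (SE, n = 3 per group) in PS473@NKMOF-101-[Mn] against NKMOF-101-[Mn] and an adjusted p of 0.999 in limma.

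Of 21 inducers and regulators of the ligands, 14 were tested and 0 were called. Il1b, which encodes the inflammatory cytokine IL-1β, was at 2.99 FPKM in PS473@CPs tumor 2, 2.82 FPKM in Free PS473 tumor 3 and 1.49 FPKM in PBS tumor 2, and was at or under 0.889 FPKM in the other 15. These were also the 3 tumors with the most Cxcl1, Cxcl2 and Cxcl3. Nfkbia, an NF-κB inhibitor and target, was highest in the same 3 tumors at 51.0, 32.7 and 38.5 FPKM, with a median of 13.2 FPKM over all 18. Il17a was listed at 0 in 16 tumors. Il17rc, a chain of the IL-17 receptor, was the 1 gene of the list past an unadjusted p of 0.05 in any comparison, at a log2 fold change of 0.39 ± 0.15 (SE, n = 3 per group) in PS473@NKMOF-101-[Mn] against Free PS473 and an adjusted p of 0.946 in limma. In PS473@NKMOF-101-[Mn] against PBS the median of the 14 genes was -0.10 with 11 lower, and between the framework groups and the others it was 0.01 with 6 lower.

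Markers of other cells were read beside these. Over the 11 comparisons 0 markers were called by limma for macrophages and monocytes (13 tested), T and NK cells (3), mast cells, basophils and eosinophils (1), erythroid cells and platelets (6), melanoma cells (7) and stroma and endothelium (7). At an unadjusted p under 0.05 the largest count in a comparison was 4 of 13 for macrophages and monocytes, in PS473@NKMOF-101-[Mn] against NKMOF-101-[Mn] (2.3% of all genes), where Csf1r had a log2 fold change of -1.16 ± 0.45 (SE, n = 3 per group). It was 3 of 3 for T and NK cells in PS473@NKMOF-101-[Mn] against Free PS473 (4.98% of all genes), all higher, and 3 of 6 for erythroid cells and platelets in PS473@CPs against PBS (2.09% of all genes), all lower. The part of these cells in the values of the members was not tested.

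The genes most like 3 of the members were taken by Spearman's rho over the 18 tumors among 12352 genes that are not members. For S100a8 they were Klk9, a kallikrein of epidermis (rho 0.90), Sprr2e, a protein of the cornified envelope (0.89), Slc16a3, a lactate transporter (0.89), Scnn1a, a subunit of the epithelial sodium channel (0.89), and Bok, a BCL-2 family member (0.88). For Csf3r they were Frmd4b (0.94), Entpd1, an ectonucleotidase of leukocytes and endothelium (0.93), Ms4a6d, a membrane protein of macrophages (0.93), Gm36161 (0.93) and Xdh, xanthine dehydrogenase (0.93). For Cxcl2 they were Cd14, the lipopolysaccharide co-receptor of monocytes and macrophages (0.95), Lamb3, a laminin chain of the epidermal basement membrane (0.93), Serpinb1a, an inhibitor of neutrophil proteases (0.91), Cxcl16, a chemokine of macrophages (0.91), and Fam43a (0.90). Cd14 was highest at 11.2 FPKM in Free PS473 tumor 3, the tumor with the most Cxcl2. These are descriptions over 18 tumors that share their skin content, and no test was made of them.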

How the data were processed

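Poly(A) RNA of 18 tumors was sequenced, and the authors deposited FPKM values with 1 gene length per gene (41079 genes, 18 tumor columns, all used). The submitters' processing notes name GRCm39. The aligner, counter and annotation are not given in the sources used here. Groups came from the sample records. Values were used as log2(FPKM + 1), which understates changes of low genes, and those genes averaging 1 FPKM or more entered limma 3.58.1 in R 4.3.3 (1 mean per group, prior variance with a trend, no replicate block). Only 48.7% to 53.4% of low values were whole fragments within 0.02 fragments, so no count model was used. The limma procedure was tested on simulated normal values with known changes in randomly drawn genes. Genes with a spread as wide as that of the members were not tested apart, so recovery of changes in them is unknown. Scores are means of log2(FPKM + 1). Relations used 100000 two-sided permutations (smallest p 1e-05) and Benjamini-Hochberg adjustment, with Python 3.11.15 and scipy 1.17.1; Ly6g, at 0 throughout, was left out. The largest gap in the skin score was 20% of its range, so r is given over all 18 tumors, beside values within the 10 tumors above 0.5. The sources used here do not tie each tumor to an animal, so p values measure the spread between these tumors. Counting limits of 3 fragments cover counting error only. Alternatives were quantile normalization, a pseudocount of 0.1, a lower filter of 0.1 FPKM or none, a fit of only the groups compared, no trend, array weights, a replicate block, the skin score as a covariate and leaving out each tumor; the 10 tumors with skin scores above 0.5 and deviations from group means were added after seeing the data. The named genes are the 10 members, genes of the fixed lists and the 5 most similar genes of S100a8, Csf3r and Cxcl2. Members and lists were chosen with earlier results of these data known.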

Additional observations from a re-analysis of the deposited data

How the results depend on the processing

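The count of members called stayed at 0 in 185 of 187 values over the 11 comparisons and their alternatives. The exceptions came with array weights, whose estimate did not converge and which gave Free PS473 tumor 1 a weight of 17.1: 3 members (S100a8, S100a9 and Cxcl2) were called in Free PS473 against PBS, and the same 3 for any difference among the 6 groups, where 2310 of all genes were called. Array weights also called 335 genes in Free PS473 against PBS and 122 in PS473@NKMOF-101-[Mn] against Free PS473, no filter called 4 for any difference, and fitting only the groups compared, or leaving out PS473@CPs tumor 3, called 1 in PS473@CPs against PBS. Leaving out each tumor in turn gave 0 members called in every comparison. Log2 fold changes that changed sign were Cxcl1 (0.048) and Cxcl2 (0.23) in PS473@NKMOF-101-[Mn] against PBS and Cxcl2 (0.11) in the framework comparison with the skin score as a covariate, Cxcl2 (0.26) and Cxcl3 (0.028) in the framework comparison with array weights, and Cxcl2 there on leaving out each tumor in turn (from -0.49 to 0.30, the latter without Free PS473 tumor 3); the cause was not tested. Without PBS tumor 1 the log2 fold change of S100a8 in PS473@NKMOF-101-[Mn] against PBS was -6.99, and without PBS tumor 2 it was -3.23. Of the 54 relations, 40 passed by r, and 32 to 44 passed on leaving out each tumor, with no share over other genes computed. Replicate numbers did not pair the tumors: over 45 pairs with the same number the correlation of deviations from the group means averaged -0.02 (from -0.73 to 0.72), and with a replicate block 0 members were called. Depth limits Retnlg, which had at most 6.5 estimated fragments in a tumor, and Ly6g, which had 0.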
